A study of Rattus norvegicus with 9 samples.

Results

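The genes described here are 6 CC chemokines (Ccl2, Ccl3, Ccl4, Ccl5, Ccl7 and Ccl20) and 3 of their receptors (Ccr1, Ccr2 and Ccr6). They were taken by gene symbol from a table of 23768 genes measured in rat tibia, and all 9 were present. All 9 also passed the filter on low counts that left 16816 genes for testing. Ccl7 and Ccl20 were under its minimum in all 3 Model libraries and passed only through GelMA and PMLGH libraries, so they are described on their own and left out of the counts over members. The tibiae came from male Sprague Dawley rats (Rattus norvegicus) in 3 groups of 3 libraries each: Model 1, 2 and 5, GelMA 2, 3 and 4, and PMLGH 2, 3 and 4, as the labels number them. The study's title concerns diabetic bone healing and a peptide made to simulate the enzyme LOX, the usual symbol of lysyl oxidase, which cross-links collagen. GelMA commonly stands for gelatin methacryloyl, modified gelatin from which hydrogels are made. What PMLGH abbreviates is not spelled out in the labels, which also do not say what the Model group underwent, whether all groups were diabetic, how old the rats were or when tissue was taken. Nor do they say that each library is a separate animal. The p-values set group differences against the spread between libraries, which may be technical in part.

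Chemokines are small secreted proteins that direct the movement of white blood cells through receptors coupled to G proteins, and the CC class is named after adjacent cysteines near the start of the protein. Ccl2 and Ccl7 act on Ccr2, the receptor by which inflammatory monocytes leave the bone marrow. Ccl3 and Ccl5 act on Ccr1, a receptor of monocytes and macrophages, Ccl4 attracts the same cells and T cells, and Ccl3 through Ccr1 is also known from osteoclast formation. Ccl20 is the ligand of Ccr6, a receptor of B cells and of T cells that make interleukin-17. In bone repair such ligands come from macrophages, stromal cells and osteoblast-lineage cells. In whole tissue, more RNA per cell and more cells of a type cannot be told apart.

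The chemokine genes sit in clusters. In the RefSeq annotation of the rat genome (GRCr8) Ccl7 is the coding gene next to Ccl2, and Ccl4 the one next to Ccl3, while Ccl9 follows Ccl5. A promoter sequence from RefSeq, 250 bases before to 50 bases from the annotated start, was on hand for 5 of the members, namely Ccl7, Ccl20, Ccr1, Ccr2 and Ccr6. Those of 2 chemokines that were scarce or unseen in Model and of the receptor that rose are shown, 5′ to 3′, with matches to the NF-kappaB motif and the AP-1 motif in capitals. They lie at chr10:67513845-67514144 on the plus strand for Ccl7, at chr9:91836909-91837208 on the plus strand for Ccl20, and at chr8:132439217-132439516 on the minus strand for Ccr1.
Ccl7: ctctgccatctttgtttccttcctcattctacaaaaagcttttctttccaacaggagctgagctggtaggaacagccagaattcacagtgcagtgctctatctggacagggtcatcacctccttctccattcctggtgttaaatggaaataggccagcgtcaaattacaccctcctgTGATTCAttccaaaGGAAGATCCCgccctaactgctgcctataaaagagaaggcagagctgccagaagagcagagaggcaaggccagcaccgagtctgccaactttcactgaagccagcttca
Ccl20: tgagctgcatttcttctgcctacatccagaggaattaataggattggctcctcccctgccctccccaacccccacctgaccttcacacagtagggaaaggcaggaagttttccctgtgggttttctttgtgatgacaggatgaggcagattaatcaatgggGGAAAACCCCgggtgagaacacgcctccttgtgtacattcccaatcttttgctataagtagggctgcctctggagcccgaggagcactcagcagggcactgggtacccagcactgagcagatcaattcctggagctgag
Ccr1: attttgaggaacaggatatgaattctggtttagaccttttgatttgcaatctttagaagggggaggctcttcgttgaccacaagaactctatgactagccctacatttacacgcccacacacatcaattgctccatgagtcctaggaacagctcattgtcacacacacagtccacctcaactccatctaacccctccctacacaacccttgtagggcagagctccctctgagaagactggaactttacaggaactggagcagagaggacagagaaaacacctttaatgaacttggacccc
A total of 5 motifs was searched on both strands. The NF-kappaB motif, which 7.51% of all 33469 promoters in the table hold, matched in Ccl7 from 59 to 50 bases before the start and in Ccl20 from 89 to 80 bases before it. The AP-1 motif TGANTCA, held by 7.33%, matched in Ccl7 from 73 to 67 bases before the start and overlapped no other match there. TATAAA, held by 14.2%, matched in Ccl7 from 34 to 29 bases before the start. The C/EBP motif TTNNGNAA, held by 41.3%, matched in Ccr1, Ccr2 and Ccr6, and the interferon motif GAAANNGAAA, held by 3.92%, matched in none of the 5 promoters. These matches describe letters in a window and not binding.

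Total counts per library ran from 34571478 to 37166383, and levels are given as CPM, counts scaled to a common library size by TMM. All 8 bone cell markers, among them Col1a1 and Bglap, were present in every library. Their sum, mostly Col1a1, was 10091 to 12430 CPM in Model, 20227 to 22523 CPM in GelMA and 21406 to 25018 CPM in PMLGH. No Model library reached the other groups, while GelMA and PMLGH overlapped. The part of these cells in the chemokine differences was not tested. Within Model, library 2 lay far from the rest: its chi-square per gene averaged 33.0 against Model 1 and 27.7 against Model 5, where those had 15.7 between them. Skeletal muscle markers (8 of 8 present) had a summed level of 525 to 729 CPM in Model, 2452 to 3008 CPM in GelMA and 820 to 1147 CPM in PMLGH. Erythroid markers summed to 8397 to 10376 CPM in Model, 7022 to 7597 CPM in GelMA and 6823 to 7533 CPM in PMLGH. No batch is labelled, so a batch that follows the groups cannot be told apart from them.

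The chemokines Ccl2, Ccl3, Ccl4 and Ccl5 and the receptor Ccr1 rose in PMLGH against Model, while the receptors Ccr2 and Ccr6 did not pass. These are 5 of the 7 members that were over the minimum count in Model, where 15.7% of all tested genes rose and 11.9% fell. The median log2 fold change was 1.73 over these 4 chemokines and 0.24 over the 3 receptors, where all tested genes had 0.02. A gene was called at an adjusted p under 0.05 in edgeR's quasi-likelihood test with Benjamini-Hochberg adjustment over all tested genes. In GelMA against Model 3 of the 7 rose (Ccl2, Ccl3 and Ccr1) and 4 did not pass, where 12.7% of all tested genes rose and 9.88% fell. The medians were 0.78 for the chemokines and 0.19 for the receptors, against 0.03 over all genes. In PMLGH against GelMA 4 of the 7 rose (Ccl2, Ccl3, Ccl4 and Ccr1) and 3 did not pass, where 1.8% of all tested genes rose and 1.64% fell, and the medians were 0.95 and 0.10 against 0.00. None of the 7 fell. For 5 of the 7 no library of one group reached the range of the other in PMLGH against Model, where 21.1% of all genes were separate and higher, and likewise for 5 in GelMA against Model (19.8%) and for 5 in PMLGH against GelMA (12.3%). The comparisons with Model share the Model libraries, and the 2 comparisons with PMLGH share the PMLGH libraries, so these counts are not independent.

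**Figure D1:**
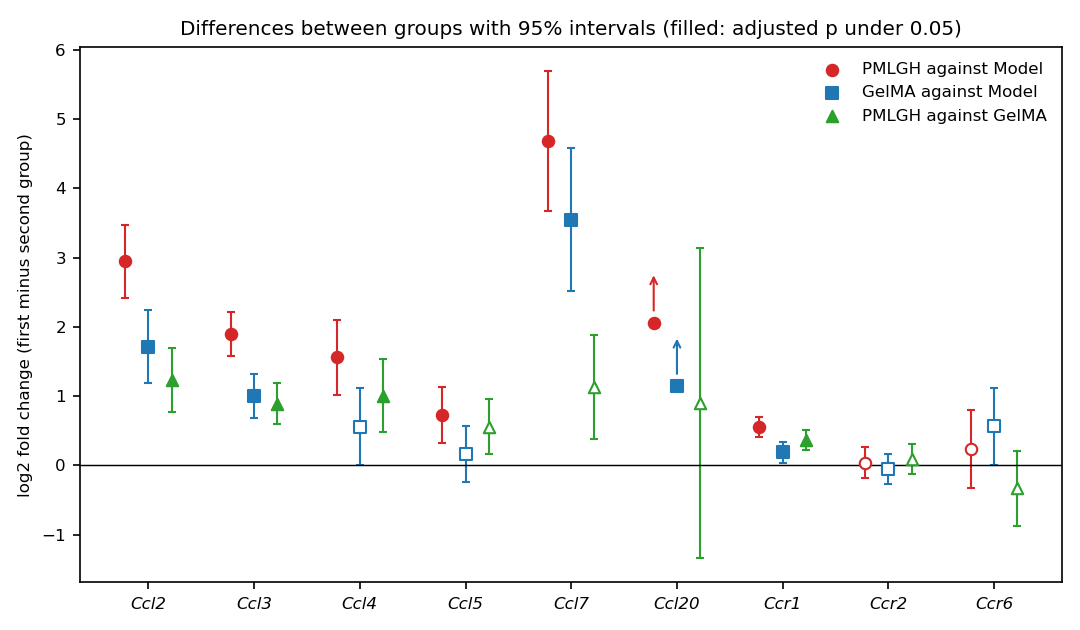
Log2 fold change of each gene in 3 comparisons, with approximate 95% intervals from the SE. Filled symbols passed at an adjusted p of 0.05. Arrows on Ccl20 start at 2.06 and 1.14 against Model, where its 0 counts were taken as at most 3 per library. These bounds hold for the observed PMLGH and GelMA means and leave out their spread. In PMLGH against Model Ccl2, Ccl3, Ccl4 and Ccl5 have larger values than the 3 receptors, though the intervals of Ccl5, Ccr1 and Ccr6 overlap. Ccl7 and Ccl20 were tested only through GelMA and PMLGH libraries and are left out of this contrast.

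Among the chemokines, the monocyte attractant Ccl2 differed between all 3 groups. Its level was 2.27, 1.35 and 1.23 CPM in Model 1, 2 and 5. It was 6.33, 4.57 and 5.03 CPM in GelMA 2, 3 and 4, and 11.8, 14.0 and 11.6 CPM in PMLGH 2, 3 and 4. No library of a group overlapped with a library of another group. PMLGH was above Model by a log2 difference of 2.94 ± 0.21 (SE), a 7.70-fold difference (edgeR quasi-likelihood test, Benjamini-Hochberg adjusted p = 1.4e-07). GelMA exceeded Model by 1.71 ± 0.22 (edgeR adjusted p = 5.7e-05), and PMLGH exceeded GelMA by 1.23 ± 0.19 (edgeR adjusted p = 0.0014).

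Ccl7, the neighbour of Ccl2 and a second ligand of Ccr2, was close to absent in Model, under the minimum count of the filter, and was tested only because of its counts in the other groups. It had 7, 2 and 4 counts in Model 1, 2 and 5, against 47, 47 and 72 counts in GelMA 2, 3 and 4 and 117, 137 and 114 counts in PMLGH 2, 3 and 4. The groups again did not overlap. Its mean was 0.127 ± 0.076 CPM in Model, 1.51 ± 0.38 CPM in GelMA and 3.32 ± 0.32 CPM in PMLGH (SD, n = 3 each). The log2 fold change was 4.68 ± 0.41 for PMLGH against Model (edgeR adjusted p = 9.9e-07) and 3.55 ± 0.42 for GelMA against Model (edgeR adjusted p = 3.2e-05). PMLGH against GelMA gave 1.13 ± 0.30 and did not pass (edgeR adjusted p = 0.057), although all 3 PMLGH libraries were above all GelMA libraries. It passed in a fit of those 2 groups alone (adjusted p = 0.013), with adjusted p from 0.0061 to 0.24 over its alternatives.

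Ccl3, a ligand of Ccr1 also called MIP-1 alpha, followed the same order of groups at a higher level. It stood at 5.93, 7.69 and 5.96 CPM in Model 1, 2 and 5, at 15.3, 12.2 and 11.9 CPM in GelMA 2, 3 and 4, and at 25.6, 23.3 and 24.1 CPM in PMLGH 2, 3 and 4. All 3 groups were separate from each other. The log2 fold change was 1.90 ± 0.13 for PMLGH against Model (edgeR adjusted p = 7.1e-08), 1.01 ± 0.13 for GelMA against Model (edgeR adjusted p = 6.9e-05) and 0.89 ± 0.12 for PMLGH against GelMA (edgeR adjusted p = 5.2e-04).

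Ccl4, or MIP-1 beta, an attractant of macrophages and T cells, lies next to Ccl3 and was scarcer. Its level was 1.53, 1.91 and 2.05 CPM in Model 1, 2 and 5, 3.23, 2.38 and 2.49 CPM in GelMA 2, 3 and 4, and 6.61, 5.15 and 4.52 CPM in PMLGH 2, 3 and 4. The groups did not overlap. PMLGH was higher than Model by 1.56 ± 0.22 on the log2 scale (edgeR adjusted p = 1.1e-04). PMLGH also exceeded GelMA by 1.01 ± 0.21 (edgeR adjusted p = 0.015), a call lost without GelMA 3, GelMA 4, PMLGH 2 or PMLGH 3 (adjusted p = 0.078, 0.075, 0.098 and 0.054), with adjusted p from 5.7e-04 to 0.098 over its alternatives. GelMA against Model gave 0.56 ± 0.23 and did not pass (edgeR adjusted p = 0.094), but it passed in limma on both log2 FPKM scales (adjusted p = 0.032 and 0.040), with adjusted p from 0.032 to 0.29 over its alternatives.

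Ccl5, or RANTES, which T cells, NK cells and macrophages make, was the most abundant of the chemokines. Model 1, 2 and 5 had 21.2, 38.5 and 23.1 CPM, so Model 2 was above all GelMA libraries, which held 31.7, 30.9 and 30.7 CPM in GelMA 2, 3 and 4. PMLGH 2, 3 and 4 had 52.9, 43.7 and 40.9 CPM and were above all other libraries. PMLGH was higher than Model by 0.73 ± 0.16 on the log2 scale (edgeR adjusted p = 0.0040). GelMA against Model gave 0.17 ± 0.17 and did not pass (edgeR adjusted p = 0.52, approximate 95% interval -0.24 to 0.58), but without Model 2 it was 0.46 and passed (adjusted p = 0.0016), with adjusted p from 0.0016 to 0.97 over its alternatives. PMLGH against GelMA gave 0.56 ± 0.16 and did not pass (edgeR adjusted p = 0.082). It passed in 5 alternatives, among them the fits without Model 2 (adjusted p = 3.0e-04), without Model 1 (adjusted p = 0.037) and with GelMA and PMLGH alone in the fit (adjusted p = 4.7e-04), with adjusted p from 2.9e-04 to 0.33 over its alternatives.

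T cells and NK cells are sources of Ccl5, and part of their markers also differed between the groups. The summed level of 8 T cell markers, all present, was 182 to 224 CPM in Model with its highest value in Model 2, 239 to 264 CPM in GelMA and 286 to 297 CPM in PMLGH. Most of that sum was Cd4, which rat monocytes and macrophages carry as well, at 137 to 160 CPM in Model and 199 to 206 CPM in PMLGH. In PMLGH against Model 6 of 8 T cell markers rose, Cd4 and the T cell receptor subunit Cd3e among them, and none fell, where 15.7% of all tested genes rose. The 2 that did not pass were the receptor subunits Cd3d and Cd3g (edgeR adjusted p = 0.075 and 0.11). The 6 NK cell markers, all present, summed to 97.4 to 121 CPM in Model, 112 to 123 CPM in GelMA and 113 to 132 CPM in PMLGH, and the groups overlapped. Most of that sum was Nkg7, a protein of cytotoxic granules, which did not pass in PMLGH against Model (log2 fold change 0.11, edgeR adjusted p = 0.40), while 3 of the 6 markers rose. PMLGH 2 had the highest Ccl5, the highest T cell sum and the lowest NK sum of its group. Model 2 and GelMA 2 each had the highest Ccl5, T cell sum and NK sum of their groups. In PMLGH against GelMA none of the 8 T cell and 6 NK cell markers passed in edgeR, where 4 T cell markers and 0 NK cell markers had an unadjusted p under 0.05. The part of these cells in the Ccl5 difference was not tested.

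Ccl20 was at the limit of detection. It had 0 counts in all 3 Model libraries, 5, 16 and 0 counts in GelMA 2, 3 and 4, and 6, 12 and 22 counts in PMLGH 2, 3 and 4. GelMA 4 therefore looked like Model, and the GelMA and PMLGH libraries overlapped. With 3 counts per Model library taken as the upper limit that a count of 0 allows, its observed mean was 4.16-fold that limit in PMLGH and 2.21-fold in GelMA. The limit covers counting error in Model only, and the spread of the PMLGH and GelMA counts is not part of these ratios. The edgeR adjusted p was 0.013 for PMLGH against Model and 0.044 for GelMA against Model. Since Ccl20 was tested only because GelMA 3, PMLGH 3 and PMLGH 4 held enough counts, these p-values are given as a description. The value of GelMA against Model was over 0.05 without GelMA 3 (adjusted p = 0.20) and without any single one of the Model libraries, GelMA 2, PMLGH 3 or PMLGH 4, and ranged from 0.0082 to 0.24 over its alternatives. PMLGH against GelMA did not pass (log2 fold change 0.90 ± 0.92, edgeR adjusted p = 0.71), which at this depth leaves an approximate 95% interval from -1.34 to 3.14.

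**Figure D2:**
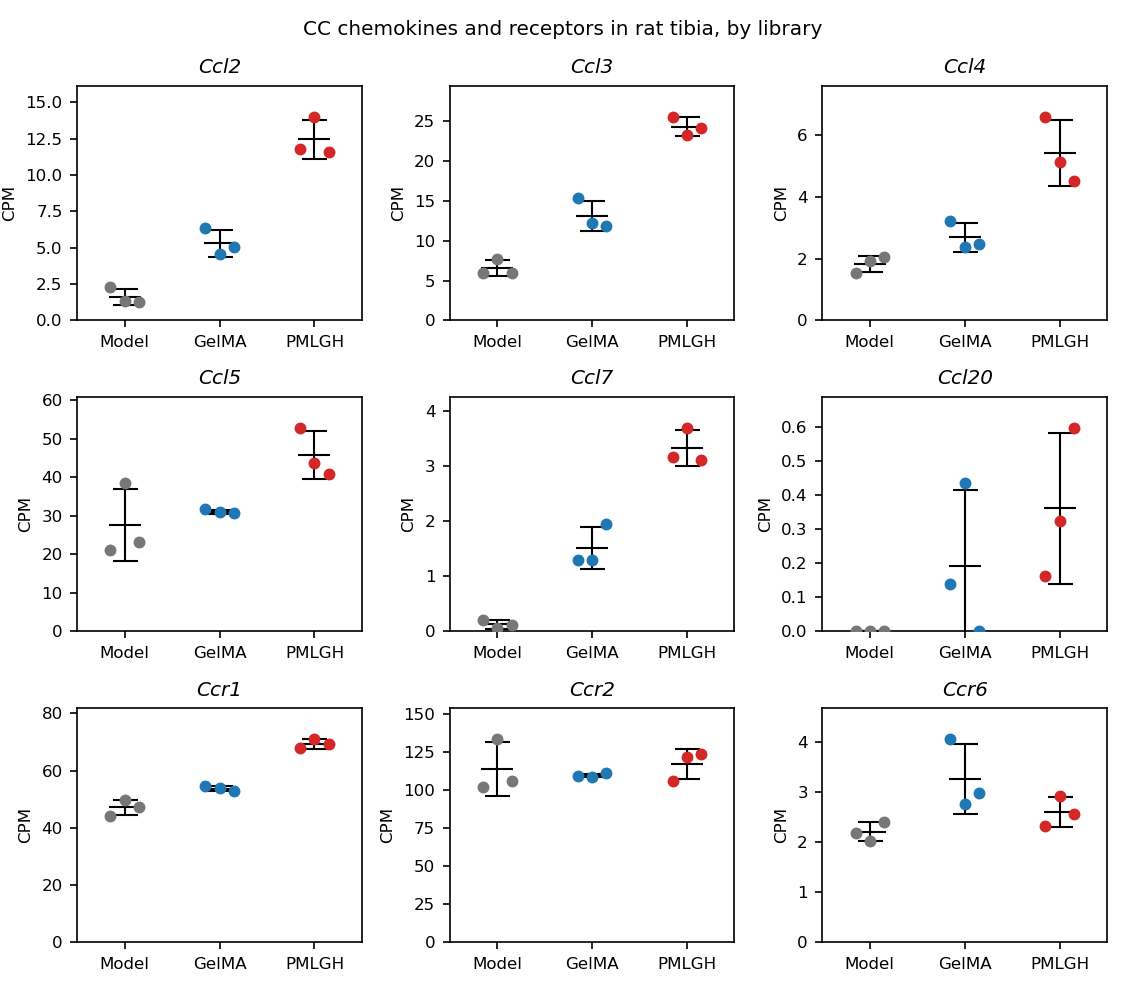
Level in CPM (linear axis from 0) of each of the 9 genes in each library of Model, GelMA and PMLGH. Points are libraries, the long dash is the group mean and the bars are SD (n = 3), cut at 0 for Ccl20. Ccl2, Ccl3, Ccl4, Ccl7 and Ccr1 have 3 separate groups, while Ccr2 overlaps in all.

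The receptors had smaller fold changes than Ccl2, Ccl3, Ccl4 and Ccl5 in PMLGH against Model. Ccr1, which binds Ccl3, Ccl5 and Ccl7, had 44.3, 49.8 and 47.4 CPM in Model 1, 2 and 5, 54.6, 53.9 and 52.8 CPM in GelMA 2, 3 and 4, and 67.8, 71.2 and 69.2 CPM in PMLGH 2, 3 and 4. The groups did not overlap, and the spread within each was narrow. PMLGH exceeded Model by a log2 fold change of 0.56 ± 0.06, or 1.47-fold (edgeR adjusted p = 9.3e-06), and GelMA by 0.37 ± 0.06 (edgeR adjusted p = 0.0023). GelMA against Model gave 0.19 ± 0.06 (edgeR adjusted p = 0.036), but this call was lost in 11 of 18 alternatives, with adjusted p from 0.015 to 0.16. Among these were RLE scaling and DESeq2 (adjusted p = 0.051 in each) and the fits without Model 1, Model 5, GelMA 2, GelMA 3, GelMA 4, PMLGH 2 or PMLGH 4.

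Ccr2, the monocyte receptor of Ccl2 and Ccl7, did not pass in any comparison. It had 102, 134 and 106 CPM in Model 1, 2 and 5, 109, 109 and 111 CPM in GelMA 2, 3 and 4, and 106, 122 and 124 CPM in PMLGH 2, 3 and 4. The Model libraries spanned all the others. PMLGH against Model differed by 0.04 ± 0.09 on the log2 scale (edgeR adjusted p = 0.77), with an approximate 95% interval from -0.18 to 0.26. GelMA against Model gave -0.06 ± 0.09 (edgeR adjusted p = 0.71, interval -0.27 to 0.16) and PMLGH against GelMA 0.10 ± 0.09 (edgeR adjusted p = 0.67, interval -0.12 to 0.32). The sign of the comparisons with Model turned when a Model library was left out, to -0.034 and -0.021 in PMLGH against Model without Model 1 or Model 5, and to 0.048 in GelMA against Model without Model 2.

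Ccr6, the receptor of Ccl20, was the scarcest receptor and did not pass in any comparison. It had 2.18, 2.03 and 2.41 CPM in Model 1, 2 and 5, 4.06, 2.76 and 2.97 CPM in GelMA 2, 3 and 4, and 2.32, 2.91 and 2.56 CPM in PMLGH 2, 3 and 4. All GelMA libraries were above all Model libraries, and PMLGH overlapped with both groups. The log2 fold change was 0.57 ± 0.23 for GelMA against Model (edgeR adjusted p = 0.087), 0.24 ± 0.23 for PMLGH against Model (edgeR adjusted p = 0.49) and -0.33 ± 0.22 for PMLGH against GelMA (edgeR adjusted p = 0.53). B cell markers, 6 of 6 present, also had their highest mean in GelMA, with a summed level of 346 to 438 CPM against 261 to 406 CPM in Model and 237 to 271 CPM in PMLGH. Within groups, GelMA 2 and Model 5 had the highest Ccr6 and the lowest B cell sum, while PMLGH 3 had the highest of both. In PMLGH against GelMA 5 of the 6 B cell markers fell, where 1.64% of all tested genes fell. Of the 5 markers of lymphocytes that make interleukin-17, none passed the filter on low counts, and 4 had 0 counts throughout Model. The part of these cells in the Ccr6 values was not tested.

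On the FPKM scale, which corrects for gene length and allows genes to be set against each other, Ccl5 led in every group, with 48.0 ± 17, 55.4 ± 0.30 and 80.4 ± 12 FPKM in Model, GelMA and PMLGH (SD, n = 3). In Model the order then ran Ccr1 (25.2), Ccr2 (22.5), Ccl3 (8.55), Ccl4 (6.50), Ccl2 (2.05), Ccr6 (0.440), Ccl7 (0.155) and Ccl20 (0), and only Ccr1 and Ccr2 overlapped between neighbours. GelMA had the same order except that Ccl7 (1.90) stood above Ccr6 (0.669), and no neighbours overlapped. In PMLGH Ccl3 (32.2) stood above Ccr2 (23.3) in all 3 libraries. There Ccr2 and Ccl4 (19.4), and Ccr6 (0.524) and Ccl20 (0.440), overlapped, changed order between libraries and have no firm order. The ranges of Ccl4 and Ccl2 (15.9) overlapped as well, but Ccl4 was the higher in all 3 libraries. The FPKM of Ccl4 rests on a length of 279 bases, the shortest of the 9, where the other members had 569 to 5012 bases, so its place depends on that gene model.

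**Figure D3:**
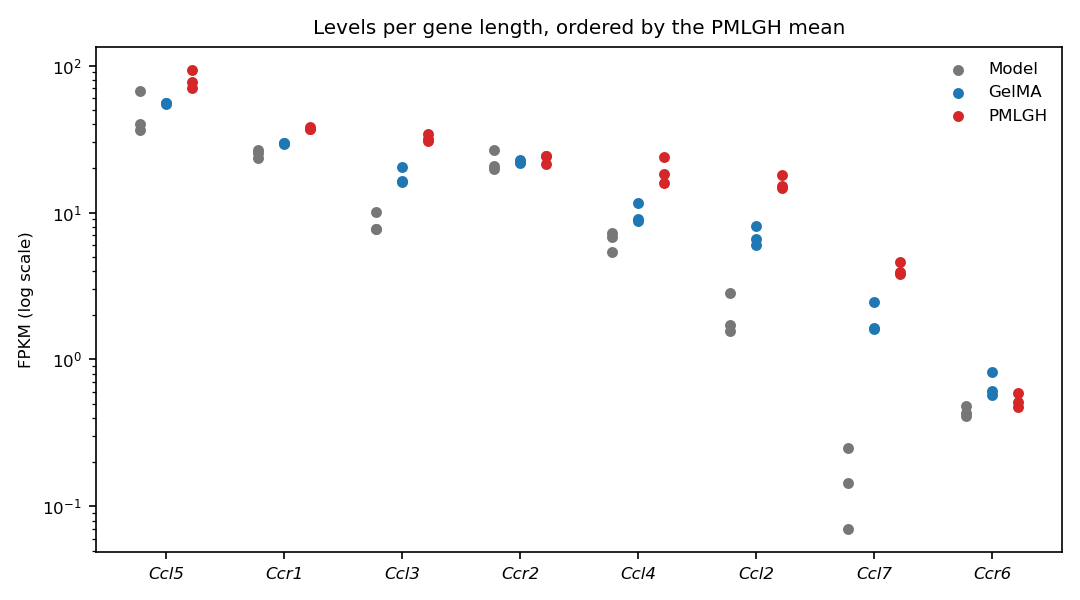
FPKM (log axis) of 8 of the genes in each library, ordered by the PMLGH mean. Ccl20 is left out because it was 0 in 4 libraries. Ccl2 and Ccl7 span the widest range between Model and PMLGH, while Ccr2 overlaps between all groups.

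The balance of ligand and receptor transcripts differed between groups. The FPKM ratio of Ccl2 to Ccr2 was 0.143, 0.0649 and 0.0747 in Model 1, 2 and 5, 0.373, 0.270 and 0.291 in GelMA 2, 3 and 4, and 0.712, 0.739 and 0.602 in PMLGH 2, 3 and 4. For Ccl3 to Ccr1 the ratio was 0.338 ± 0.036 in Model, 0.599 ± 0.078 in GelMA and 0.862 ± 0.062 in PMLGH (SD, n = 3). Neither ratio overlapped between groups. For Ccl5 to Ccr1 the ratio was 1.89 ± 0.54, 1.88 ± 0.012 and 2.15 ± 0.34, and the groups overlapped. The makeup of the 6 chemokines by CPM differed as well. Ccl5 held 72.4% ± 4.9 of their sum in Model, 57.8% ± 2.7 in GelMA and 49.8% ± 2.6 in PMLGH, and Ccl2 held 4.60% ± 2.4, 9.80% ± 1.0 and 13.6% ± 1.9. These are shares of counts and not of protein.

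Markers of monocytes and macrophages, the cells that carry Ccr1 and Ccr2, also moved. Of 12 such genes, all present, 9 rose in PMLGH against Model and 3 did not pass, where 15.7% of all tested genes rose. In GelMA against Model 4 rose and 8 did not pass (12.7% of all tested genes rose). In PMLGH against GelMA 3 rose and 9 did not pass (1.8% of all tested genes rose). Cd14, a co-receptor for bacterial lipopolysaccharide, rose by 1.51 ± 0.09 on the log2 scale in PMLGH against Model (edgeR adjusted p = 2.3e-08), and Adgre1, the F4/80 antigen of macrophages, by 1.11 ± 0.10 (edgeR adjusted p = 2.3e-06). Cd163, a scavenger receptor of resident macrophages, had 210 ± 30 CPM in Model and 180 ± 11 CPM in PMLGH and did not pass (log2 fold change -0.23, edgeR adjusted p = 0.061). The summed level of the 12 markers was 7792 to 9937 CPM in Model, 7935 to 8696 CPM in GelMA and 9692 to 10546 CPM in PMLGH, and Model and PMLGH overlapped. Most of that sum was Lyz2, at 7864 ± 950 CPM in Model and 8793 ± 377 CPM in PMLGH (SD, n = 3). Taken singly, Lyz2, Itgam and Cd163 overlapped between Model and PMLGH. The other markers were separate and higher in PMLGH, as were 21.1% of all tested genes. The 6 chemokines together summed to 31.2 to 49.5 CPM in Model, 51.8 to 58.0 CPM in GelMA and 84.9 to 100.2 CPM in PMLGH, without overlap. Of 9 neutrophil markers tested, 3 rose in PMLGH against Model and none fell, where 15.7% of all tested genes rose. The 10 markers of that list summed to 10411 to 13796, 12024 to 13039 and 12041 to 15464 CPM in Model, GelMA and PMLGH. The part of cell numbers in the chemokine differences was not tested.

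**Figure D4:**
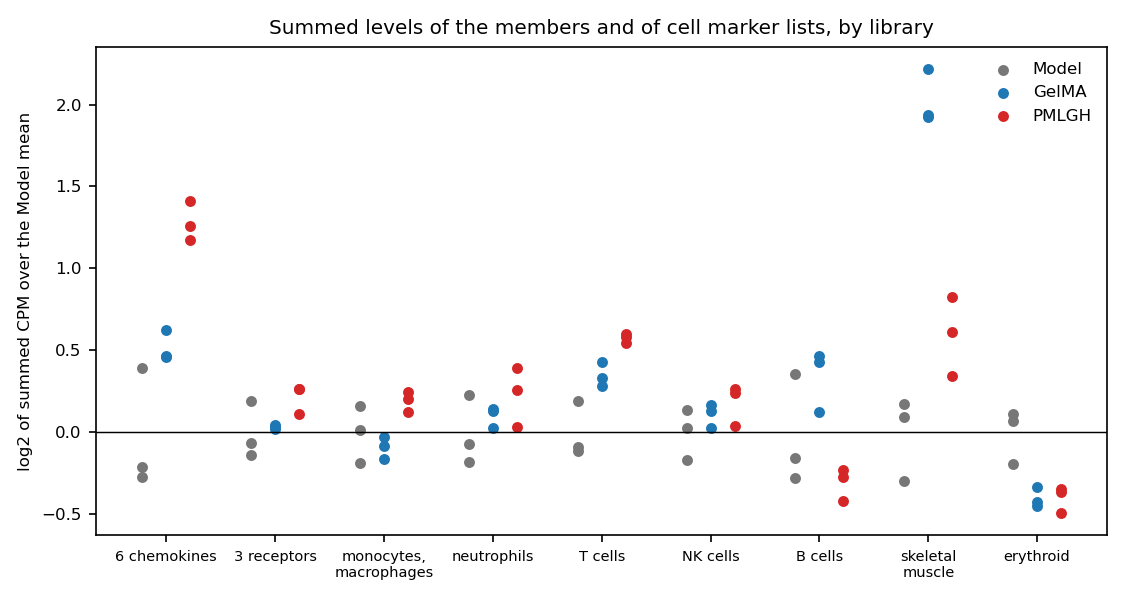
Summed CPM of the 6 chemokines, the 3 receptors and 7 marker lists in each library, as log2 of the ratio to the Model mean. The chemokine sum is separate in all 3 groups, and the muscle markers are highest in GelMA.

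Other CC chemokines gave a mixed picture. Of 14 in the list, 7 passed the filter. In PMLGH against Model 3 rose and 4 did not pass, where 15.7% of all tested genes rose. Ccl12 and Ccl22 were under the minimum count in Model, and of the other 5 Ccl9 and Ccl21 rose, with a median log2 fold change of 0.34. Ccl9, a rodent chemokine of macrophages and osteoclasts that acts on Ccr1, rose from 4.80 ± 2.0 to 16.5 ± 1.4 CPM, or by 1.78 ± 0.25 on the log2 scale (edgeR adjusted p = 1.1e-04), and exceeded GelMA by 0.96 ± 0.24 (edgeR adjusted p = 0.038). Ccl12, which lies in the cluster of Ccl2 and acts on Ccr2 in mice, had 3, 2 and 0 counts in Model and 27, 61 and 25 counts in PMLGH. Its log2 fold change was 4.30 ± 0.74 (edgeR adjusted p = 5.4e-04). This p-value is given as a description, since Ccl12 was tested only through its GelMA and PMLGH counts. Ccl21, a chemokine of lymphatic vessels, rose by 0.76 ± 0.26 (edgeR adjusted p = 0.043). In GelMA against Model Ccl9 and Ccl21 rose, and so did Ccl12 and Ccl22, a ligand of Ccr4, both with the limit of being under the minimum in Model. Ccl6 was the most abundant of the list, at 131 to 167 CPM over the 9 libraries, and did not pass in any comparison.

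Of 10 other CC receptors and scavenging receptors counted here, 8 passed the filter. Of these 8, 2 rose, 2 fell and 4 did not pass in PMLGH against Model, where 15.7% of all tested genes rose and 11.9% fell. Ackr4, which takes up chemokines without signalling, rose by 1.04 ± 0.16 (edgeR adjusted p = 2.1e-04) and exceeded GelMA by 0.78 ± 0.16 (edgeR adjusted p = 0.010). Ccr7, which guides lymphocytes and dendritic cells to lymph nodes, rose by 0.96 ± 0.28 (edgeR adjusted p = 0.018). Ccr3, the eosinophil receptor, fell by 0.45 ± 0.12 (edgeR adjusted p = 0.012), and Ackr1, a chemokine sink of red cells and venules, fell by 0.44 ± 0.10 (edgeR adjusted p = 0.0056). In GelMA against Model Ccr7 rose and Ccr3, Ccrl2 and Ackr1 fell.

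**Figure D5:**
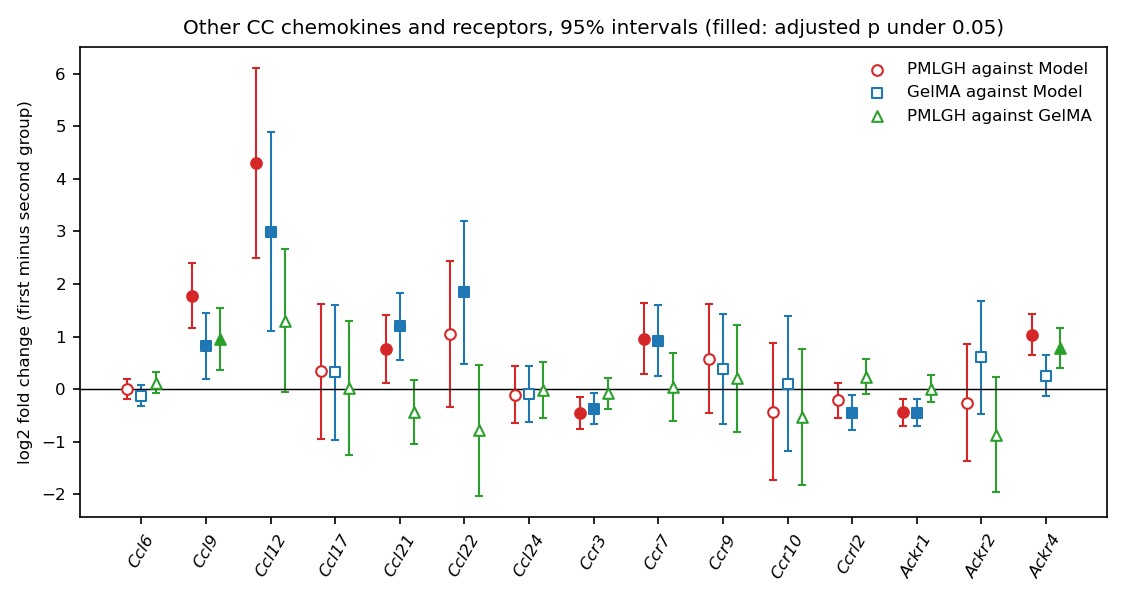
Log2 fold change with approximate 95% intervals of the other CC chemokine (7) and receptor (8) genes that passed the filter, in 3 comparisons. Filled symbols passed at an adjusted p of 0.05. Ccl9 and Ackr4 passed in PMLGH against GelMA, and Ccr3 and Ackr1 were lower in both groups than in Model.

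Most tested genes of the signalling that induces these chemokines rose in PMLGH against Model. The list held 25 genes, mostly cytokines, receptors and transcription factors, and also Nfkbia and Tnfaip3, which restrain NF-kappaB. Of these 25, 22 passed the filter, Il6 only through GelMA and PMLGH. Of the other 21, 16 rose in PMLGH against Model, Nfkbia and Tnfaip3 among them, and 5 did not pass, where 15.7% of all tested genes rose. In GelMA against Model 7 rose and 14 did not pass (12.7% of all tested genes rose). In PMLGH against GelMA 7 rose and 14 did not pass (1.8% of all tested genes rose). Il1b, the interleukin-1 beta that macrophages release, had 13.4 ± 2.3 CPM in Model, 41.8 ± 2.5 CPM in GelMA and 59.3 ± 6.4 CPM in PMLGH (SD, n = 3), and PMLGH was above Model by 2.15 ± 0.11 on the log2 scale (edgeR adjusted p = 3.7e-09). Fos, a part of AP-1, rose by 1.20 ± 0.13 in PMLGH against GelMA (edgeR adjusted p = 9.9e-05), and Nfkbiz, a regulator of NF-kappaB target genes, by 0.66 ± 0.08 (edgeR adjusted p = 1.5e-04). Among 19 genes of signalling below the receptors, 7 rose in PMLGH against Model and 12 did not pass, and the median log2 fold change was 0.17. Rgs1, which damps G protein signalling, rose by 1.02 ± 0.22 (edgeR adjusted p = 0.0031). Grk3, a kinase that desensitises receptors, was the single gene of that list to rise in PMLGH against GelMA, by 0.43 ± 0.10 (edgeR adjusted p = 0.034).

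Each member was also set against 12844 other named genes averaging 1 CPM or more, by the root mean square difference of centred log2 CPM over the 9 libraries, where 0 is an identical profile. This is a description over libraries that share their groups. The nearest genes to Ccl2 were Postn, a matrix protein of periosteum (0.29), and Tnn, a tenascin of periosteum (0.32), followed by the embryonic myosin Myh3 (0.34). For Ccl7 the nearest were the chemokines Cxcl13 (0.44), Cxcl11 (0.53) and Cxcl1 (0.57). Ccl3 lay nearest to Nsg1 (0.20) and Inhba, the activin A subunit (0.21), and Ccl4 to Apol11a and Socs1, a brake on cytokine signalling (0.19 each). Ccl5 was closest to Klrk1, the NKG2D receptor of NK and T cells (0.14). Ccr1 was closest to Il6st, the shared receptor of the interleukin-6 family (0.05), and Ccr2 to Nckap1l, an actin regulator of blood cells (0.03). Ccr6 was closest to Duox1 (0.11). For Ccl20 the nearest was Il2ra, at 0.72. Among the members themselves the closest pairs were Ccr1 with Ccr2 (0.22), Ccl5 with Ccr1 (0.23) and Ccl3 with Ccl4 (0.26), and Ccl2 and Ccl7 lay 0.71 apart. The measure is not scaled by the size of change, so genes that differ little between libraries lie close. Ccr1 and Ccr2 are such a pair, though Ccr1 separated the groups and Ccr2 did not.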

How the data were processed

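RNA of 9 rat tibia libraries was analysed from 2 tables. One, as deposited, gives raw counts by gene symbol, and the deposited FPKM table holds the same counts, which the authors scaled to library total and gene length: for all 22798 genes with a count, FPKM equalled count over total and 1 length within a relative tolerance of 0.0001. The submitters' processing notes name DESeq2 and R 3.2.0 without a role. The sources used here do not give the aligner, counter, strand, build or annotation, and reads of antisense genes and near-identical copies cannot be told apart.

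Here the model of edgeR 4.0.16 (R 4.3.3) was fitted by quasi-likelihood to all 9 libraries with a mean for each group (6 residual degrees of freedom) after filterByExpr with a minimum count of 10 and TMM scaling. Tests were two-sided, with Benjamini-Hochberg adjustment over all genes of a comparison and 0.05 as the threshold. Each SE is the log2 fold change divided by the square root of F, and approximate 95% intervals use it. The common biological coefficient of variation was 10.1%. In simulated counts for PMLGH against Model over 16572 genes, 80 of 100 genes changed by 1 and 95 of 97 changed by 2 on the log2 scale were called, with 6 of 16375 unchanged genes. The simulation gave every group the same spread and held no outlying library such as Model 2. Its rates therefore need not hold for the real counts. Replicates were compared by chi-square over genes with a mean of at least 50 counts, and no library copied another. Alternatives used DESeq2 1.42.0, limma 3.58.1 on log2(FPKM + 0.1) and log2(FPKM + 1), other scalings and filters, and leaving out each library. Members and lists were chosen with earlier results of these data known. All 9 members are named, with up to 4 genes of smallest p per comparison from each other list. Of the 3 nearest profiles per member some are given. Genes that small counts single out were named after their values were seen. So were Lyz2, Cd4, Nkg7, Cd163 and Ccl6 for their level or direction, and Nfkbia and Tnfaip3 for their role. A gene of the lists is not reported here.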

Additional observations from a re-analysis of the deposited data

How the results depend on the processing

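Ccl2, Ccl3, Ccl4, Ccl5 and Ccr1 passed in PMLGH against Model under every alternative run. So did Ccl7, which is given as a description, since in the main fit it was tested only through its GelMA and PMLGH counts. Ccl20 fell below the filter with those 2 groups alone in the fit. Every alternative also called Ccl2, Ccl3 and Ccr1 in PMLGH against GelMA, and Ccl2 and Ccl3 in GelMA against Model. With 1 library left out, no member was called lower in any of the 3 comparisons. Ccl7 and Ccl20 aside, the 2-group fit of GelMA against Model called Ccl2 and Ccl3, where all 9 libraries also called Ccr1. The fits without Model 1, Model 5, GelMA 2, GelMA 3, GelMA 4, PMLGH 2 or PMLGH 4 likewise called only Ccl2 and Ccl3. The log2 fold change of Ccr2 turned sign in 3 of the fits with 1 library left out. Its ranges were -0.034 to 0.14 in PMLGH against Model and -0.13 to 0.048 in GelMA against Model.

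Over all genes, leaving out 1 library gave 1976 to 2873 higher and 1268 to 2795 lower in PMLGH against Model, 1454 to 2585 and 1035 to 2468 in GelMA against Model, and 143 to 586 and 144 to 464 in PMLGH against GelMA. Limma called 1103 and 1107 genes lower in GelMA against Model on the 2 FPKM scales and 914 without a filter. In PMLGH against GelMA it called 168 and 185 higher, and 122 higher and 144 lower without a filter. There edgeR called 455 higher without a filter, and 590 higher and 469 lower with 2 groups in the fit, and DESeq2 489 and 420. The causes were not tested.

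GelMA and PMLGH share replicate numbers 2, 3 and 4, but same-numbered libraries deviated together by correlations of only -0.01 to 0.03 across genes, so the numbers are not taken as pairs. With the replicate block, 577 genes were higher and 460 lower in PMLGH against GelMA, and Ccl5 and Ccl7 passed (adjusted p = 2.9e-04 and 0.018). Members with few counts (Ccl7 in Model, Ccl20 throughout) are limited by depth.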
